A study of Homo sapiens with 6 samples.

Results

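The genes described here encode the 4 ID proteins (ID1, ID2, ID3 and ID4) and the 3 E proteins (TCF3, TCF4 and TCF12), and they were taken by symbol from a table of read counts for 58735 genes, in which all 7 were found. ID proteins are helix-loop-helix proteins that lack the basic region with which related factors bind DNA. They pair with E proteins, and the pair cannot bind. E proteins otherwise bind the E-box, whose letters are CANNTG, alone or together with tissue-restricted bHLH factors such as NEUROD1, which directs neuronal and endocrine differentiation. ID genes are well known targets of BMP signals, which reach them through SMAD1, SMAD5 and SMAD9 together with SMAD4.

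The libraries come from H1155, an established line of neuroendocrine large cell lung cancer, grown without treatment in DMEM with 10% fetal bovine serum. There were 3 libraries of parental cells, labelled WT, and 3 labelled GFI1-KO, from cells in which CRISPR/Cas9 and pairs of guides had been used on the promoter region of GFI1, a zinc finger repressor of transcription, and from which monoclonal GFP-positive clones had been sorted. The number of clones behind the KO-labelled libraries, whether the WT cells were sorted and whether the replicates were separate cultures are not given in the sources used here, so that the p-values below measure only the spread between these libraries, which may be technical, and clone and edit cannot be told apart. The question of the comparison was how the transcriptome of H1155 cells differs once GFI1 has been deleted.

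GFI1 itself had 153, 106 and 125 counts in the WT-labelled libraries and 174, 188 and 170 in the KO-labelled libraries. Its counts were not lower under the GFI1-KO label: the log2 fold change was 0.31, with an edgeR adjusted p of 0.0273 that was no longer past the threshold under 7 of 16 alternative settings, the correction for GC content and the omission of WT replicate 2 or 3 or GFI1-KO replicate 2 among them. The paper reports the deletion with immunoblots of GFI1 protein, which these RNA counts do not measure. Reads on the transcribed part of the gene do not measure the edited promoter. Why these reads were not fewer under the GFI1-KO label was not tested. The groups are therefore called WT-labelled and KO-labelled throughout, and every direction below is that of the KO-labelled against the WT-labelled libraries.

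The libraries held between 14882914 and 17692882 counts. Replicates of a group differed by more than sampling noise and were much more alike than libraries of different groups (Pearson's r of log2 CPM of 0.991 to 0.993 against 0.937 to 0.942, across genes, which are not independent replicates). Of the 17514 genes left after edgeR had filtered out low counts, 72.4% were called different at an adjusted p of at most 0.05, 36.5% higher and 35.9% lower, and the groups did not overlap for 74.4%. The log2 fold changes moved with the GC content of the genes (Spearman's rho of 0.57 across the 17415 tested genes with a known GC content, which are not independent). Differences of the members and of the named genes of the lists, and the counts of the lists, are therefore given beside their values after each library had been corrected for the GC content and length of its genes, called the correction below, and the part of GC content in them was not tested further. With the correction 35.8% of all tested genes were called higher and 25.7% lower. Summed normalized counts of 14 neuroendocrine markers were 44776 to 45085 in the WT-labelled and 60574 to 61661 in the KO-labelled libraries, but of the 12 tested 7 rose and 5 fell, DDC (log2 fold change -3.26) and SCG3 (-0.71) among the latter, and 4 rose and 6 fell with the correction. Of the defining markers, GRP and CALCA had group means of at most 6.36. The 6 blood cell markers summed to at most 13.2. The 4 endothelial markers summed to between 446 and 502 in the WT-labelled and between 220 and 248 in the KO-labelled libraries, nearly all of it PECAM1, with VWF and TEK near 0. The 7 fibroblast markers summed to between 3143 and 3227 and then to between 2235 and 2313, with DCN at 0 in every library. Of the 5 tested fibroblast markers 3 fell, COL1A2 (log2 fold change -0.54) and PDGFRB (-3.24) among them, and 2 rose, COL3A1 from a mean of 2.49 to 139 normalized counts and PDGFRA from 3 to 47 counts summed over the libraries of a group. The 5 epithelial markers summed to between 3385 and 3568 and then to between 3988 and 4375, with KRT8 (0.45) higher and EPCAM (-2.23) and CDH1 (-2.31) lower, and with 1 higher and 3 lower under the correction. In such bulk libraries, fewer cells of a type and less RNA per cell cannot be told apart.

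The sequence upstream of the 4 ID genes is shown because these genes had the largest differences of the 7. The 250 bases before the RefSeq start of each gene (GRCh38.p14) are printed 5′ to 3′ along the gene's strand, and capitals mark the E-box CANNTG, the GFI1 core AATC and the TATA box TATAAA on either strand.
ID1 (chr20:31605039-31605288, plus strand): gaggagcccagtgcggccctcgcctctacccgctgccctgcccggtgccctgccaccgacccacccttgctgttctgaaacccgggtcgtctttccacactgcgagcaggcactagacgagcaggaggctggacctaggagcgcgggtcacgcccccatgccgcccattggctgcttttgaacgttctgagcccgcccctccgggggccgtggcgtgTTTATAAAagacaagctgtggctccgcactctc
ID2 (chr2:8681806-8682055, plus strand): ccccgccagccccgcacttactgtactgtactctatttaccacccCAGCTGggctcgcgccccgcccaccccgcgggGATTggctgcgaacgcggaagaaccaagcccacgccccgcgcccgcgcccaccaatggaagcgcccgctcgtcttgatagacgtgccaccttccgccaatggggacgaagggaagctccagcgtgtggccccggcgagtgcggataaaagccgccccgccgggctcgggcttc
ID3 (chr1:23559502-23559751, minus strand): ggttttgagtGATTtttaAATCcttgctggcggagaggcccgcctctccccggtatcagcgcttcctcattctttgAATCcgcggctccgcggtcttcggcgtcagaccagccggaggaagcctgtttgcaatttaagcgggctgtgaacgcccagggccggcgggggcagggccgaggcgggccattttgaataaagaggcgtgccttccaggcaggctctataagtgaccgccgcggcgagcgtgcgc
ID4 (chr6:19837120-19837369, plus strand): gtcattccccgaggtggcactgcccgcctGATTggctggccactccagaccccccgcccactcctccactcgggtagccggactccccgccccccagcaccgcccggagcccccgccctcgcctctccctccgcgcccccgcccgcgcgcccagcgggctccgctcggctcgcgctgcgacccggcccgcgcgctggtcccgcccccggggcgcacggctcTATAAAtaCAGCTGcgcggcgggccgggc
The window searched, on both strands, ran from 250 bases before the start to 50 after it. ID2 and ID4 each held 1 E-box, which began at positions -205 and -21 and read CAGCTG in both, and ID1 and ID3 held none. Among 35116 RefSeq promoter windows of the same length, 68.7% held an E-box and 17.9% held CAGCTG, which is a form of CANNTG. The letters AATC occurred 3 times in ID3, at -240, -232 and -174, once in ID2 at -173 and once in ID4 at -221, and not in ID1, while 69.0% of all windows held them. TATAAA was found in ID1 at -31, with an overlapping match on the other strand at -33, and in ID4 at -29, against 11.5% of all windows. The EGR1 element GCGGGGGCG was found in ID4 at -117 and in 5.07% of all windows, and the GC-rich SMAD element GGCGCC in none of the 4 ID windows and in 19.2% of all. These matches describe letters and not binding. The table's own ID2 and ID3 genes start upstream of the RefSeq starts used here, and the printed windows of these genes lie inside them.

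All 4 ID genes had more reads in the KO-labelled libraries, and of the E-protein genes TCF3 had more and TCF4 and TCF12 had fewer. As the 7 genes were chosen with results of this comparison known, their differences are given as a description with no test. They were chosen by their counts and fold changes in these 6 libraries. All 7 lay past the threshold and without overlap between the groups, as 72.4% and 74.4% of all tested genes did, and the 4 ID genes had log2 fold changes above 1, as 10.2% did with a call. Nothing is read from these counts.

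ID1 lies on chr20:31605283-31606515 (GRCh38, plus strand, ENSG00000125968). It had 785, 707 and 790 normalized counts, that is counts divided by the TMM-scaled library size and brought to a common mean size, in the WT-labelled libraries and 5756, 5641 and 5851 in the KO-labelled libraries. All KO-labelled libraries were far above all WT-labelled ones, and the means of 761 ± 46.5 and 5749.5 ± 105.0 (SD, n = 3 each) differed 7.55-fold, a log2 fold change of 2.92 (SE 0.042). Of all tested genes, 0.719% had a higher log2 fold change. With the correction the value was 2.37.

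ID2 (chr2:8678845-8684453, plus strand, ENSG00000115738) had 1731, 1548 and 1505 normalized counts in the WT-labelled and 5495, 5583 and 5475 in the KO-labelled libraries. It was the ID gene with the most reads in the WT-labelled group and the one with the smallest fold change, 3.46-fold, with means of 1595 ± 120.3 and 5518 ± 57.5 and a log2 fold change of 1.79 (SE 0.042), or 1.53 with the correction. A higher value was found for 2.80% of tested genes. ID2-AS1 and the pseudogene ID2B share 4.17% of the 50-base words in its transcripts. ID2-AS1, which overlaps ID2 on the other strand, had mean normalized counts of 25.7 and 43.5 (log2 fold change 0.76, 0.79 with the correction), and since the strand setting of the counting is not given, its reads and those of ID2 may not be fully separate.

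ID3 (chr1:23557918-23559794, minus strand, ENSG00000117318) had the largest fold change of the 7. Its normalized counts were 157, 133 and 132 in the WT-labelled and 2616, 2695 and 2717 in the KO-labelled libraries. From a low level in every WT-labelled library it stood at 19.0 times that level, with means of 141 ± 13.9 and 2676 ± 53.3 and a log2 fold change of 4.25 (SE 0.062), or 3.80 with the correction. A higher value was found for 0.240% of tested genes, which put ID3 at rank 43 of 17514.

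ID4 (chr6:19837386-19840684, plus strand, ENSG00000172201) was the least abundant of the ID genes. It had 116, 107 and 153 normalized counts in the WT-labelled and 721, 749 and 745 in the KO-labelled libraries. The groups were far apart, although the WT-labelled libraries varied more among themselves than for the other ID genes, with means of 125 ± 24.4 and 738 ± 14.9. The difference was 5.87-fold, a log2 fold change of 2.55 (SE 0.092), and 1.01% of tested genes had a higher value. ID4 was the member whose value grew with the correction, to 2.87, and its transcript is poorer in GC (41.4%) than those of ID1 (58.6%), ID2 (53.3%) and ID3 (56.7%). An unnamed antisense gene over ID4, AL022068.1, had means of 11.3 and 44.5 normalized counts (log2 fold change 1.97, edgeR adjusted p = 2.65e-06, 2.37 with the correction). Only a part of it overlaps ID4, and without strand reads in that part may not be separate from those of ID4. Of the 50-base words in ID4 transcripts, 0 were found in other genes.

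TCF3, which encodes the E proteins E12 and E47, lies on chr19:1609290-1652605 (minus strand, ENSG00000071564). Its normalized counts were 921, 983 and 907 in the WT-labelled and 1494, 1434 and 1554 in the KO-labelled libraries. It was the E-protein gene that was higher in the KO-labelled group, with means of 937 ± 40.6 and 1494 ± 60.0, a 1.60-fold difference and a log2 fold change of 0.67 (SE 0.049). With the correction the log2 fold change was 0.12 (SE 0.045), and 44.5% of tested genes then had a higher value. The GC content of TCF3, 62.6%, is above that of 94.8% of the genes of the table.

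TCF4 (chr18:55222331-55664787, minus strand, ENSG00000196628), which encodes the E protein E2-2, had 2362, 2312 and 2405 normalized counts in the WT-labelled and 1359, 1354 and 1353 in the KO-labelled libraries. TCF12 (chr15:56918623-57299281, plus strand, ENSG00000140262), which encodes the E protein HEB, had 2400.1, 2352 and 2390.0 and then 1599, 1522 and 1552. Both were lower in every KO-labelled library. The means of TCF4 were 2359.8 ± 46.1 and 1355 ± 2.95, 1.74-fold lower with a log2 fold change of -0.80 (SE 0.039). Those of TCF12 were 2381 ± 25.2 and 1558 ± 38.8, 1.53-fold lower with a log2 fold change of -0.61 (SE 0.039). With the correction these differences shrank to -0.15 (SE 0.037) and -0.13 (SE 0.036), below the values of 67.5% and 66.1% of tested genes. The GC contents of TCF4 (38.2%) and TCF12 (40.7%) lie near the low end, above those of 11.1% and 21.7% of the genes of the table. The 4 ID genes thus kept differences of 1.53 to 3.80 under the correction, and the 3 E-protein genes kept their signs at a size of 0.12 to 0.15.

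**Figure D1:**
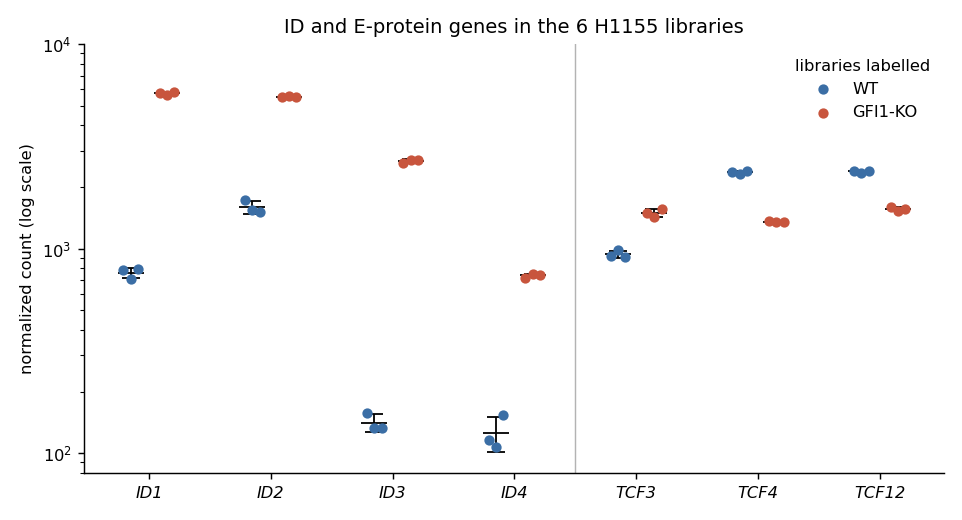
Normalized counts (log axis) of the 4 ID and 3 E-protein genes in each of the 6 libraries, WT-labelled in blue and KO-labelled in red, with the mean and SD of each group (n = 3) in black. The groups do not overlap for any of the 7 genes, as for 74.4% of all tested genes, and the distance is widest for ID3 (141 against 2676).

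**Figure D2:**
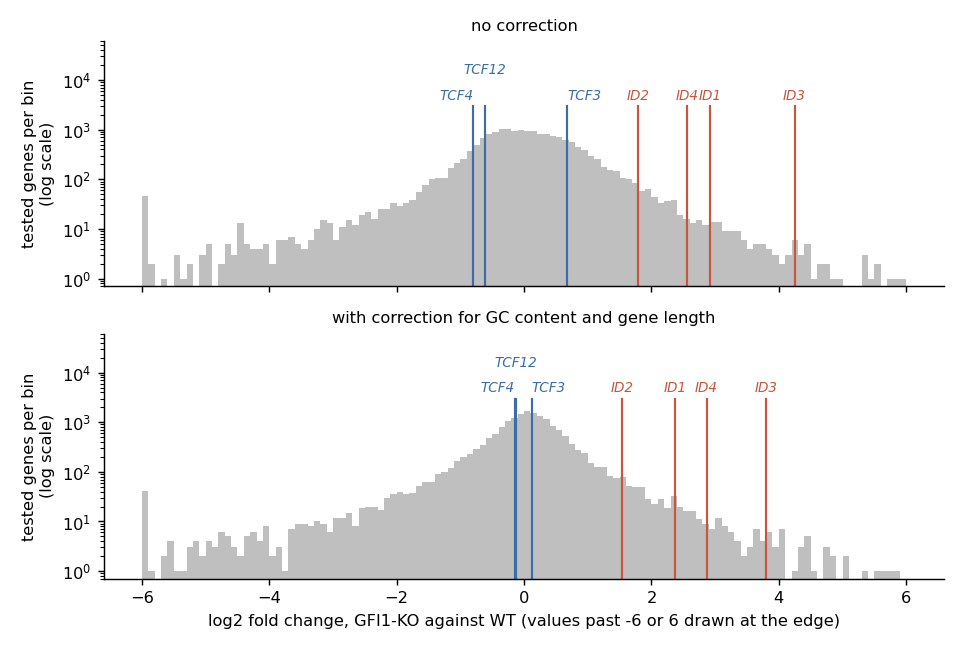
Number of tested genes (grey, log axis) by log2 fold change of the KO-labelled against the WT-labelled libraries, without the correction (top) and with it (bottom), and lines at the ID genes (red) and E-protein genes (blue). The ID genes lie in the right tail in both panels (1.53 to 3.80 with the correction), and the E-protein genes move to within 0.15 of 0.

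Levels were compared between genes per length, as FPKM from the deposited gene lengths. In the WT-labelled libraries the order was ID2 (43.9 ± 3.29 FPKM), ID1 (37.5 ± 2.29), TCF12 (15.3 ± 0.158), TCF3 (9.35 ± 0.406), TCF4 (5.15 ± 0.101), ID3 (4.75 ± 0.468) and ID4 (3.25 ± 0.634). Of the neighbours in this order only TCF4 and ID3 overlapped, at 5.04 to 5.25 and 4.47 to 5.29 FPKM. In the KO-labelled libraries the order was ID1 (279.8 ± 5.20), ID2 (150.2 ± 1.56), ID3 (89.4 ± 1.85), ID4 (18.9 ± 0.395), TCF3 (14.7 ± 0.598), TCF12 (9.89 ± 0.241) and TCF4 (2.92 ± 0.004), with no overlap between neighbours. All 4 ID genes then stood above all 3 E-protein genes, whereas ID3 and ID4 had the lowest means of the 7 in the WT-labelled group. Among all tested genes, ID1 moved from the 93.9 to the 99.6 percentile of FPKM, ID3 from the 51.1 to the 97.9 and ID4 from the 43.0 to the 83.7. These orders were taken without the correction, and they depend on the gene length used. The deposited length of TCF4, 27828 bases, counts the exons of all its isoforms, and with the canonical transcript of 8041 bases its level was 17.8 FPKM in the WT-labelled and 10.1 in the KO-labelled libraries, which placed it above TCF3 (12.0) in the former. With canonical lengths ID4 stood at 11.4 FPKM in the KO-labelled libraries, below TCF3 (18.9) and TCF12 (15.3).

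The summed level of the ID genes was 94.5, 84.7 and 88.8 FPKM in the WT-labelled libraries and 535, 536 and 544 in the KO-labelled libraries, 6.02 times as high. The summed level of the E-protein genes was 29.7, 30.0 and 29.7 and then 27.8, 26.7 and 28.1 FPKM, so that it was slightly lower in every KO-labelled library, at 0.925 times the WT-labelled mean, while its parts differed in opposite directions. The size of this fall depends on the gene lengths used, and it is not given with the correction. For each FPKM of E-protein transcript there were 3.18, 2.83 and 2.99 FPKM of ID transcript in the WT-labelled libraries and 19.2, 20.03 and 19.3 in the KO-labelled libraries. This ratio of transcripts had means of 3.00 ± 0.177 and 19.5 ± 0.433, a 6.51-fold difference, or 7.16-fold with canonical lengths, an alternative added after the data had been seen. On the log2 scale the difference was 2.70, and 2.24 with the correction. Such sums say nothing of the proteins, which were not measured in these libraries. Within the ID genes, ID1 made up 41.9% of the summed FPKM in the WT-labelled group and 52.0% in the KO-labelled group, ID2 49.1% and 27.9%, ID3 5.31% and 16.6%, and ID4 3.64% and 3.51%. Within the E-protein genes, TCF12 held the largest share in the WT-labelled group (51.3%, then 35.9%) and TCF3 in the KO-labelled group (31.4%, then 53.5%), while TCF4 held 17.3% and 10.6%. These shares too depend on the length used, and with canonical lengths TCF4 held 33.3% and 22.8%, TCF12 44.2% and 34.5%, and TCF3 22.5% and 42.7%. All these shares are without the correction. With it the log2 fold changes of TCF3, TCF4 and TCF12 were only 0.12, -0.15 and -0.13, so that no change of the largest E-protein share is read from them.

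**Figure D3:**
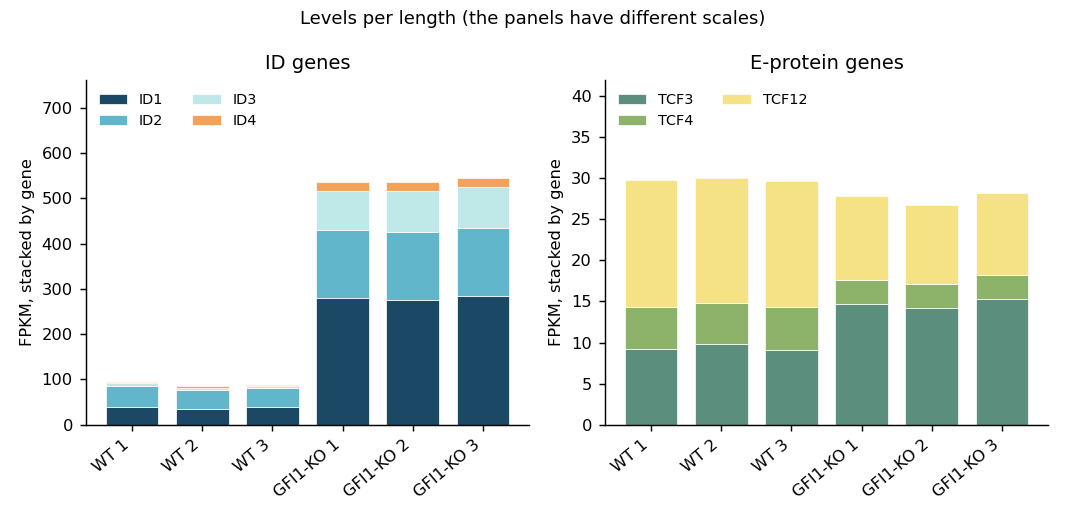
FPKM, without the correction, of the ID genes (left) and the E-protein genes (right), stacked by gene for each of the 6 libraries, on different vertical scales. The ID stacks reach 84.7 to 94.5 in the WT-labelled libraries and 535 to 544 in the KO-labelled ones, and the E-protein stacks lie between 26.7 and 30.0 in all 6.

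The genes whose levels ran most like those of each member were sought by the Euclidean distance between log2 CPM values centred over the 6 libraries, among 11852 tested genes with a mean of at least 100 normalized counts. With 2 groups of 3 libraries, this measure mainly finds genes of like fold change. The nearest to ID1 were HIST1H2BK (distance 0.136), TIMP3 (0.154) and PRDM6 (0.182), and to ID2 they were ASS1 (0.117), SERF2 (0.130) and PPP1R15A (0.137). ID3 had few genes near it, the closest being EMP1 at 0.405, MT1L at 0.429 and LINC02593 at 0.619. For ID4 they were RORB (0.307), SYTL3 (0.320) and AGPAT2 (0.333). The E-protein genes sat in denser company, TCF3 with PLPP2 (0.030), ARHGAP39 (0.047) and ISG15 (0.060), TCF4 with RRM2 (0.035), KPNA3 (0.044) and ARL6IP1 (0.046), and TCF12 with MAPK8 (0.026), DNA2 (0.027) and HACD3 (0.032).

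Tissue-restricted bHLH factors bind DNA as partners of E proteins, in competition with ID proteins. Of 47 such genes, 21 passed the filter, and of these 7 rose and 10 fell, 33.3% and 47.6% against 36.5% and 35.9% of everything tested. The median of their log2 fold changes was -0.24, beside 0.00 over the whole table. With the correction 4 rose and 9 fell (19% and 42.9%, against 35.8% and 25.7%). This list and those below were chosen with earlier results of these data known, and their genes were named partly by fold change. Their calls and adjusted p-values therefore serve as a description.

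NEUROD1, a neuronal differentiation factor, fell from 5905 ± 97.8 to 4476 ± 116 normalized counts (log2 fold change -0.40, edgeR adjusted p = 2.68e-11) and stayed the most abundant of the list, and with the correction its value was -0.02 and no longer past the threshold. NEUROD4 (-0.35) and NHLH2 (-0.24) lost their calls under the correction too, with values of 0.07 and -0.08. Genes with fewer reads, named here after their values had been seen, kept their falls. Without and with the correction these were NEUROG3 (-4.38, -5.10), TAL1 (-2.78, -2.92) and BHLHE22 (-2.71, -2.96). TWIST2 (-1.70, -2.18), OLIG1 (-1.55, -2.29) and TCF24 (-1.54, -1.47) did so too. The highest WT-labelled mean among them was 74.8 normalized counts, for TCF24. With the correction 9 genes of the list were lower and 4 higher. NEUROD2 rose from 635 ± 22.2 to 1060.4 ± 38.5 (0.74, 0.27 with the correction). ATOH8, a bHLH factor that has been described as a target of BMP signals, had 1515, 1672 and 1536 and then 3993, 3995 and 3878 normalized counts, with no overlap, and rose 2.51-fold (log2 fold change 1.33, SE 0.039, edgeR adjusted p = 2.14e-20, 0.98 with the correction). MSC, or musculin, a bHLH repressor, rose from 15.9 ± 2.41 to 197 ± 4.48 (3.62, edgeR adjusted p = 8.21e-16, 2.93 with the correction). MESP1, a factor of early mesoderm, rose by 0.98 on the log2 scale, with 0.12 and no call under the correction. TWIST1 had a log2 fold change of 0.22 with an edgeR adjusted p of 0.0329 that was lost under 7 of 16 settings, among them the omission of WT replicate 1 or 3 or GFI1-KO replicate 3, and its sign turned to -0.24 with the correction.

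**Figure D4:**
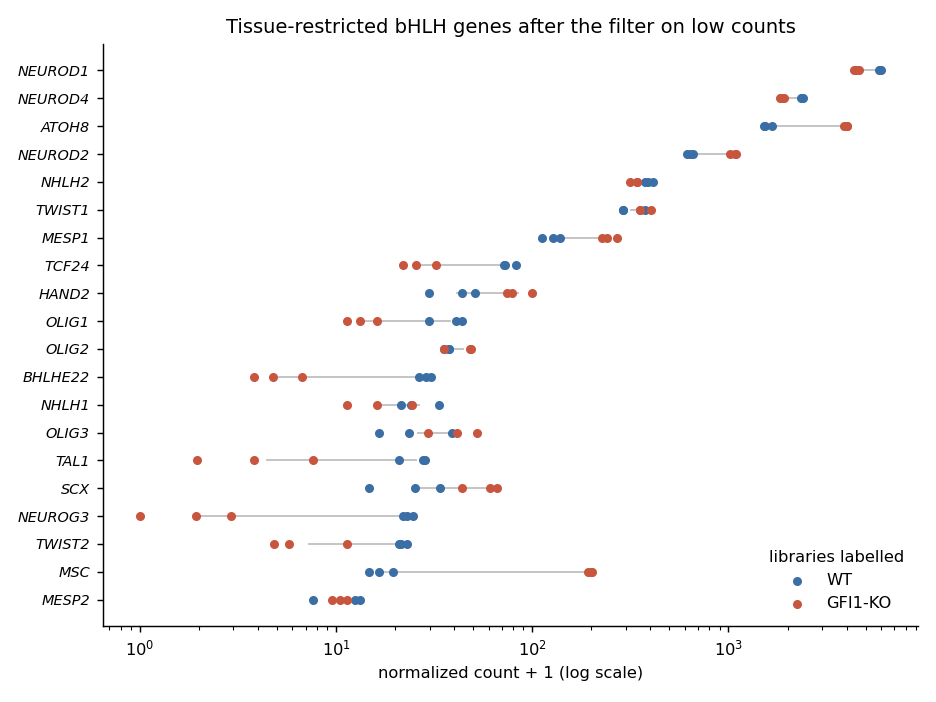
Normalized counts plus 1 (log axis) of tissue-restricted bHLH genes that passed the filter, WT-labelled libraries in blue and KO-labelled in red, with a grey line between the group means. MSC rises from 15.9 to 197, while NEUROD1 stays the most abundant gene in both groups.

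The HES and HEY genes encode bHLH repressors, many of them targets of Notch, that oppose proneural factors. Of 9 genes 8 were tested, of which 4 rose and 2 fell (50% and 25%, against 36.5% and 35.9% of everything tested), with a median log2 fold change of 0.11. With the correction 2 rose and 3 fell (25% and 37.5%, against 35.8% and 25.7%) and the median was -0.04, so that the balance depends on it. HES1 had 311, 289 and 358 and then 913, 1025 and 972 normalized counts and rose 3.03-fold (log2 fold change 1.60, SE 0.072, edgeR adjusted p = 1.3e-16, 1.51 with the correction). HES6, which counteracts HES1, fell from 597 ± 83.4 to 406 ± 24.2 (-0.55, -1.37 with the correction). HEY1 rose by 0.34 (0.48 with the correction), and the calls of HES4 (0.92) and HEYL (0.40) were lost under the correction, at -0.00 and 0.04.

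BMP signals reach the ID genes from secreted ligands through type I and type II receptors. Of 21 ligand, receptor and co-receptor genes 15 were tested, with 5 higher and 5 lower (33.3% each) and a median log2 fold change of -0.06. With the correction the balance was 8 higher and 2 lower, where 35.8% of all tested genes rose and 25.7% fell, so that its direction rests on that choice. BMP5 was the ligand with the most reads, 1574 ± 81.7 normalized counts in the WT-labelled and 1094 ± 31.0 in the KO-labelled libraries (-0.52; 0.07 and no call with the correction), and BMP2, BMP4, GDF2, BMP10, GDF5 and GDF6 were below the filter. The type I receptor genes BMPR1A (1821 and 1743 normalized counts, log2 fold change -0.06, not past the threshold) and BMPR1B, which rose from 127 ± 13.6 to 212 ± 30.3 (0.74, 1.31 with the correction), were higher with the correction, BMPR1A at 0.49. The type II receptor gene BMPR2 fell from 3442 ± 25.8 to 2593 ± 182 (-0.41, edgeR adjusted p = 1.2e-09) and turned to 0.16 with the correction, as the type I gene ACVR1 did (-0.27, then 0.23). ACVR2B fell under both (-0.72 and -0.47), and the fall of ACVR2A (-0.83) was not past the threshold with the correction (-0.18). HJV, a BMP co-receptor known from iron metabolism and named here after its values had been seen, rose from a mean of 1.38 to 47.4 normalized counts (4.95, 4.75 with the correction).

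All 6 SMAD genes of the BMP branch were tested, 3 higher and 3 lower (50% each, against 36.5% and 35.9% of everything tested). Under the correction 4 were higher and 1 lower (66.7% and 16.7%, against 35.8% and 25.7%). Of the receptor-regulated SMADs that carry the signal, SMAD5 fell from 2745 ± 46.0 to 1795 ± 64.9 normalized counts (log2 fold change -0.61, edgeR adjusted p = 1.18e-13) and SMAD1 from 453 ± 9.42 to 350.2 ± 24.3 (-0.37), and both were above 0 with the correction (0.04 and 0.17). SMAD9, the third of them, had 100.3, 99.6 and 103 and then 400.2, 423 and 419 normalized counts and rose 4.10-fold (2.03, SE 0.096, edgeR adjusted p = 3.45e-16, 2.37 with the correction). SMAD4, the shared partner, fell from 2524 ± 76.6 to 1709.6 ± 75.5 (-0.56, -0.09 with the correction).

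The inhibitory SMADs, which block the receptors and are themselves known targets of the pathway, rose most of the 6 without the correction, whereas with it SMAD9 (2.37) was not below SMAD7 (2.35). SMAD6 had 7.17, 15.5 and 10.5 normalized counts in the WT-labelled and 231, 202 and 224 in the KO-labelled libraries, a 19.8-fold difference (log2 fold change 4.30, SE 0.20, edgeR adjusted p = 2.45e-16, and 3.9 with the correction). SMAD7 had 35.8, 44.3 and 43.0 and then 256, 276 and 272 (2.71, SE 0.135, edgeR adjusted p = 1.03e-15, 2.35 with the correction). For both, every KO-labelled library was several times above every WT-labelled one.

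Among 20 genes of extracellular and intracellular BMP inhibitors, 12 were tested, with a median log2 fold change of -0.06. Of these 4 rose and 6 fell (33.3% and 50%, against 36.5% and 35.9% of everything tested). With the correction 6 rose and 4 fell (50% and 33.3%, against 35.8% and 25.7%). NBL1, which binds BMP ligands, rose from 57.2 ± 4.31 to 312 ± 40.6 normalized counts (2.45, 1.84 with the correction), and FSTL3, which binds activin and related ligands, from 85.3 ± 11.8 to 445 ± 17.4 (2.39, 1.67 with the correction). BAMBI, a decoy receptor named here after its values had been seen, rose from a mean of 14.1 to 51.2 (1.85, 1.71 with the correction). CHRDL1, also named after its values had been seen, had the lowest log2 fold change of the list. It fell from a mean of 52.7 to 2.51 normalized counts (-4.32, -4.07 with the correction). CRIM1 fell from 645 ± 40.7 to 343 ± 9.68 (-0.91; -0.79) and CHRD, or chordin, from 556 ± 18.8 to 475 ± 31.7 (-0.23; -0.84). For TWSG1, SKIL, SMURF2 and SKI the sign turned with the correction, from -0.32, -0.32, -0.33 and 0.33 to 0.32, 0.37, 0.10 and -0.19. NOG, which encodes noggin, and FST, which encodes follistatin, were below the filter.

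**Figure D5:**
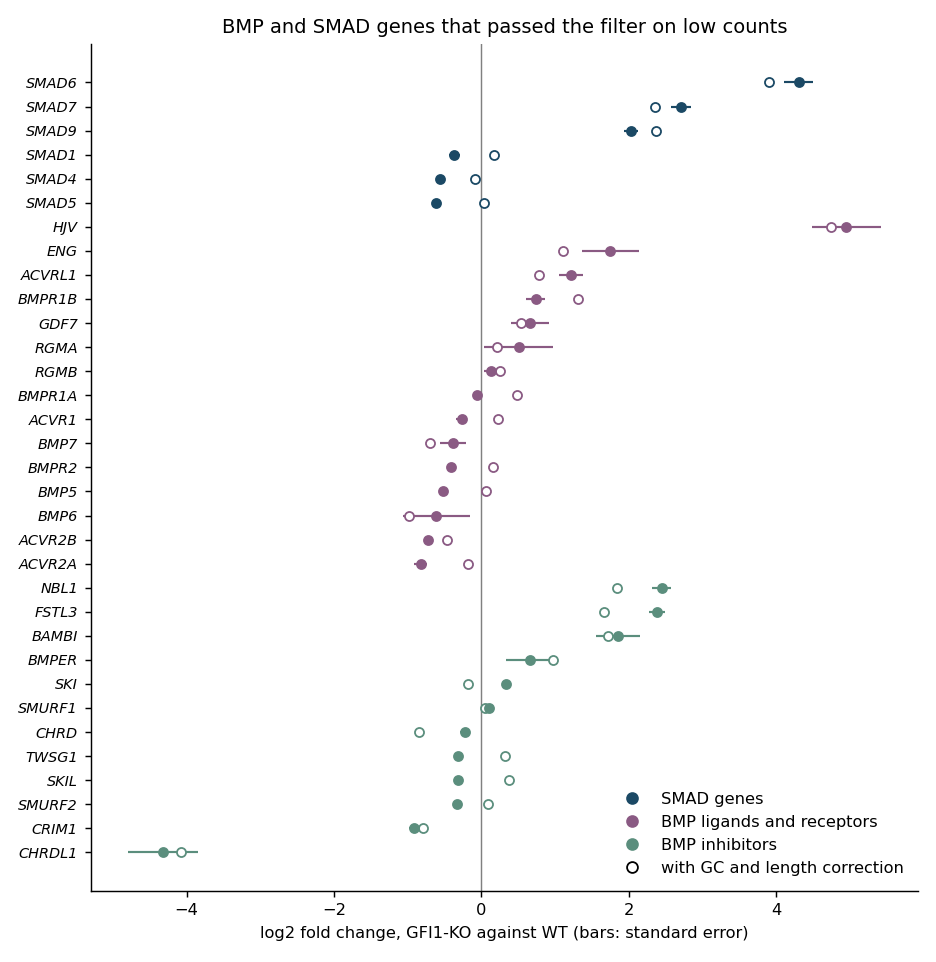
Log2 fold change of the KO-labelled against the WT-labelled libraries for the tested SMAD genes, BMP ligand and receptor genes and BMP inhibitor genes, with standard errors from the edgeR fit (filled points) and after the correction (open points). SMAD6, SMAD7 and SMAD9 stand to the right under both (4.30, 2.71 and 2.03 without the correction), whereas SMAD1 and SMAD5 move across 0.

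Of 22 genes whose products bind ID or E proteins or set their turnover, 21 were tested, with 10 higher and 8 lower (47.6% and 38.1%, against 36.5% and 35.9% of everything tested) and a median log2 fold change of 0.17. With the correction 9 were higher and 7 lower (42.9% and 33.3%, against 35.8% and 25.7%). RUNX1T1, of the ETO family of corepressors that bind E proteins, had 780, 726 and 766 and then 131, 118 and 126 normalized counts and fell to a small fraction of its level (log2 fold change -2.60, edgeR adjusted p = 4.98e-20, and -2.24 with the correction). EP300, an acetyltransferase and coactivator of E proteins, rose from 3396 ± 80.4 to 5062 ± 69.6 (0.58; 0.64). USP1, the deubiquitinase that stabilises ID proteins, fell from 5472 ± 115 to 3609 ± 56.0 (-0.60, -0.08 with the correction), while COPS5, a subunit of the COP9 signalosome, rose by 0.45 (1.01 with the correction). RB1, whose protein binds ID2, had a log2 fold change of -0.42 that turned to 0.21. FZR1 and CDC20, activators of the ligase that marks ID proteins for destruction, rose by 0.65 and 0.47, and both calls were lost with the correction (0.06 and -0.02). HDAC2 (-0.90, -0.27 with the correction), SKP2 (-0.54; -0.15) and LDB1 (0.73; 0.27) kept their directions and calls, and LMO3 (-0.76) lost its call (-0.10).

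Of 11 genes for immediate-early and other factors described as regulators of ID genes, all were tested, with 6 higher and 2 lower (54.5% and 18.2%, against 36.5% and 35.9% of everything tested) and a median of 0.33. With the correction 6 were higher and 1 was lower, against 35.8% and 25.7%. EGR1 had 660, 703 and 612 and then 1328, 1294 and 1348 normalized counts and rose 2.01-fold (log2 fold change 1.01, edgeR adjusted p = 6.38e-15, 0.66 with the correction). EGR2 rose from 51.1 ± 4.10 to 213 ± 29.7 (2.06; 1.74) and ATF3 by 0.58 (0.68). MYCN, an activator of ID2 in neuroblastoma, fell from 309 ± 6.89 to 109 ± 4.94 (-1.51; -1.95). SRC (0.33) and CREB1 (-0.16) lost or turned their calls with the correction, at -0.11 and 0.53.

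Of 24 genes known as targets of E proteins or ID proteins in other tissues, 19 were tested, with 9 higher and 8 lower (47.4% and 42.1%, against 36.5% and 35.9% of everything tested) and a median of 0.27. With the correction 7 were higher and 6 lower (36.8% and 31.6%, against 35.8% and 25.7%) and the median was 0.14. CDKN1A, the p21 gene that E proteins activate and ID proteins repress, rose from 209 ± 24.1 to 885 ± 17.4 normalized counts (log2 fold change 2.08, SE 0.075, edgeR adjusted p = 1.19e-18, 1.59 with the correction). The inhibitor genes CDKN2B (1.35 and 1.57), CDKN2D (0.93 and 0.28) and CDKN2A (0.67 and 0.23) rose too, and CDKN1C fell (-1.51 and -2.22), the second value of each pair being that with the correction. SNAI2, a repressor of epithelial genes, had 152, 196 and 140 and then 1211, 1171 and 1281 and rose 7.54-fold (2.91, edgeR adjusted p = 7.75e-21, 3.25 with the correction). THBS1, a known target of repression by ID1, fell from 7447 ± 35.3 to 1879 ± 12.8 (-1.99; -1.76). CDK6 fell (-0.87; -0.33), and the call of ZEB2 (-0.50) was lost with the correction (0.10). FOXO1 (-0.47, edgeR adjusted p = 0.0103) lost its call with the correction and without WT replicate 2.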

How the data were processed

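RNA-Seq of H1155 cells was analysed, 3 libraries labelled WT and 3 labelled GFI1-KO. Per the paper's methods, the authors selected poly-A RNA with poly-T beads, sequenced it on a NovaSeq instrument, used Hisat2 to align the reads to GRCh38 and featureCounts to count them, whereas the submitters' processing notes name Bowtie2 and HTSeq. The authors deposited the raw counts of each gene, in 1 table that also gives, as other deposited values, each gene's start, end and length. The annotation, the strand setting and the treatment of reads with several matches are not given in the sources used here. Of 58735 gene identifiers, 58207 are in GENCODE release 44, which gave GC content and canonical transcripts.

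The members and the gene lists were chosen with earlier results of these data known. All genes were tested with edgeR 4.0.16 in R 4.3.3 (TMM factors, filterByExpr, quasi-likelihood F test, Benjamini-Hochberg adjustment, adjusted p of at most 0.05), without pairing, and the members' own values were left without a test. Log2 fold changes and standard errors came from this fit, and FPKM from counts, deposited lengths and library totals. Alternatives were DESeq2 1.42.0, limma-voom (limma 3.58.1), upper-quartile or median-of-ratios factors or none, no filter, at least 10 counts in every library, the replicate number as a block, offsets for GC content and length (natural splines with 5 degrees of freedom per library), an adjusted p of at most 0.01, and the omission of 1 library at a time. The steps were tested on simulated data. Named from each list were the up to 5 genes with the highest and the up to 5 with the lowest log2 fold change among called genes with a mean of at least 100 normalized counts, 14 genes fixed by name, genes that overlap a member and the 3 nearest genes of each member. HJV, BAMBI, CHRDL1 and the tissue-restricted bHLH genes below that mean were added after their values had been seen. Promoter windows are from RefSeq, where 5 of the 7 members have a single one and TCF4 and TCF12 have several. Library totals were 14882914 to 17692882 counts. A member of the gene lists is counted with its lists but not reported here. Other data of the study, on A549 cells and from ChIP-Seq, were not used here. Figures were drawn with matplotlib 3.10.9 in Python 3.11.15.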

Additional observations from a re-analysis of the deposited data

How the results depend on the processing

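Under 16 alternative settings the 7 members kept their directions, and the largest moves came with offsets for GC content and gene length, the correction of the report. With it the log2 fold changes were 2.37 for ID1, 1.53 for ID2, 3.80 for ID3, 2.87 for ID4, 0.12 for TCF3, -0.15 for TCF4 and -0.13 for TCF12, and the counts of list genes were 4 higher for tissue-restricted bHLH, 2 higher for HES and HEY, 8 higher and 2 lower for BMP ligands and receptors, 1 lower for SMADs and 1 lower for immediate-early regulators. Upper-quartile factors gave -0.84 for TCF4 and -0.65 for TCF12, all genes being shifted by -0.04. At least 10 counts in every library left 5 bHLH genes lower, 1 HES or HEY gene lower and 3 BMP ligand and receptor genes higher, since fewer genes were tested. Leaving out each library in turn gave -0.82 to -0.79 for TCF4, and the widest range was that of ID4, 2.45 to 2.72. On the log2 scale the ratio of ID to E-protein transcripts differed by 2.70 between the groups, by 2.24 with the correction, by 2.03 without ID1 and TCF12, and by 2.84 with canonical transcript lengths, the latter chosen after seeing the data. The causes of these moves were not tested beyond what each setting changes.

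Same-numbered WT-labelled and KO-labelled libraries did not deviate together (r of -0.006, 0.014 and 0.021, against -0.050 to 0.044 for other pairs), so that no pairing was visible. Whether same-numbered libraries were prepared together is not given, and a small shared effect could be missed by this measure. With the replicate block 12573 genes were called instead of 12680, and the members' log2 fold changes were 2.92, 1.79, 4.25, 2.56, 0.67, -0.80 and -0.61. The block together with the correction gave 2.37, 1.54, 3.81, 2.87, 0.12, -0.15 and -0.13, with 4 bHLH genes higher, 2 HES or HEY genes higher, 8 BMP ligand and receptor genes higher and 2 lower, 0 SMAD genes lower and 1 immediate-early regulator lower. With 3 libraries a group and levels of 97 to 153 counts, ID3 and ID4 in the WT-labelled group are the members whose values are least precise.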

Other observations

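The deposited table assigns 101 genes to the bHLH family, of which 94 are not among the 7 members. Of these, 61 were tested, with 27 higher and 18 lower, beside 36.5% and 35.9% of all tested genes, and a median log2 fold change of 0.17. Under the correction of the report 25 rose and 20 fell, beside 35.8% and 25.7% of all tested genes, and the median was 0.07. MSC alone had a higher log2 fold change than ID2, the ID gene with the smallest difference, and 1 gene did under the correction. As the ID genes were chosen by their fold changes in these libraries, nothing is read from this rank.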
